A study of Homo sapiens with 3 samples.

Results

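The keratin genes of PANC-1 cells were followed across RNA-seq libraries from untreated cells (control), cells given 200 μM ginsenoside Rg3 for 24 h (Rg3) and cells given 50 μM tamoxifen for 24 h (TAM). PANC-1 is an established human line from a carcinoma of the pancreatic duct. Rg3 is a steroid-like saponin of ginseng, and tamoxifen is an estrogen receptor modulator that the study used as an inhibitor of protein kinase C. All cells were kept in DMEM with 10% fetal calf serum, and the labels name no agent for the control cells and do not mention a vehicle. Each condition had 1 library, so no difference has a replicate check, no p-value is given, and each interval covers counting error only. A row of the count table was taken as a keratin when its symbol was KRT, a number and at most 1 letter, and 11 such names that end in P were left out as pseudogenes. This gave 55 keratins among 51136 genes, 27 on chromosome 12 and 28 on chromosome 17.

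Keratins are the intermediate filament proteins of epithelial cells. A filament is built from pairs of an acidic type I and a basic type II chain, so cells usually make the members of a pair together. KRT8 (type II) and KRT18 (type I) are the pair of simple epithelia such as the pancreatic duct, where KRT7 (type II) and KRT19 (type I) join them, and KRT19 fragments serve as a tumor marker in serum. Stratified epithelia such as epidermis use other pairs, among them KRT5 with KRT14 in the basal layer and KRT1 with KRT10 above it. Hair keratins form the hard filaments of the hair shaft. The 55 genes held 28 of type I, 26 of type II and KRT222, a short keratin-like protein counted with neither type.

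Part of the reads of some keratins cannot be told apart, and the plainest case is KRT81 and KRT86, both type II hair keratins. In GENCODE 29 (GRCh38), KRT81 lies at chr12:52285913-52291534 on the minus strand, inside the span of KRT86 at chr12:52249300-52309163 on the plus strand. Their coding sequences were 1515 and 1458 bases long. Of 1454 bases aligned without a gap, 1361 were identical (93.6%), and the longest identical run covered 605 bases. The first stretch below is the start of that run (coding bases 61 to 120 of both genes) and shows a place where a read fits both genes equally. The next 2 lines show coding bases 1249 to 1308 of each gene, the window of 60 bases with the most differences among those that hold no gap, with the 14 differing bases in capitals.
KRT81 and KRT86, bases 61 to 120: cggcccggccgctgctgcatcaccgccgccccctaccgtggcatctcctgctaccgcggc
KRT81, bases 1249 to 1308: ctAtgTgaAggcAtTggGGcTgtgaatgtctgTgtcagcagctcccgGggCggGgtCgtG
KRT86, bases 1249 to 1308: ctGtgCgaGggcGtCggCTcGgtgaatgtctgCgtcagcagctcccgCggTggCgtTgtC

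**Figure D1:**
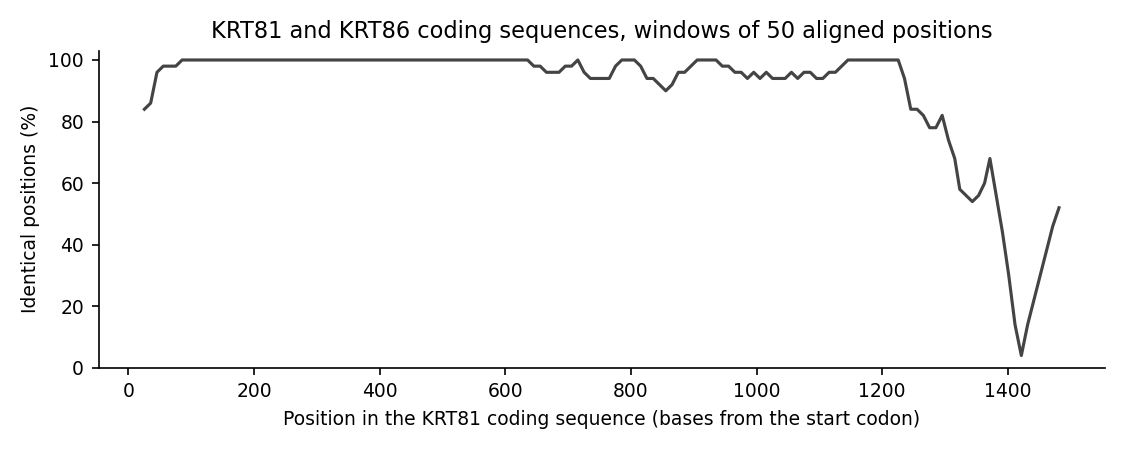
Identity of the KRT81 and KRT86 coding sequences in windows of 50 aligned positions, with distance from the start codon of KRT81 in bases on the x axis and percent identity on the y axis; gaps count as differing bases. The sequences were identical over a run of 605 bases near the start and were least alike towards the end, where the alignment also holds gaps.

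Over all transcripts, 38.4% of the stretches of 50 bases of KRT81 recurred in KRT86, and 33.3% of those of KRT86 recurred in KRT81. Other members shared sequence with pseudogenes or overlapping genes. For KRT8, 22.1% of the stretches recurred in pseudogenes. For KRT18 the share was 21.7%, and a further overlap came from KRT8, whose exons meet those of KRT18 on the opposite strand. For KRT7, 10.4% recurred in the antisense gene KRT7-AS. The use of strand in counting is not given in the sources used here. KRT19 (1.79%), KRT10 (0.434%), KRT80 (0.416%) and KRT15 (0.328%) shared little.

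The libraries held 11300766 (control), 12861693 (Rg3) and 11321442 (TAM) counts on genes, and 0 counts allowed up to 3 counts, or 0.233 to 0.265 CPM. Counts were scaled by TMM, which sets most genes to no change. Scaling by library totals instead moved every log2 value by 0.14 for Rg3 and by -0.21 for TAM. Across genes, the fold change followed the GC content of the transcript in both treated libraries (Spearman's rho -0.75 for Rg3 and 0.44 for TAM). Keratin transcripts are rich in GC, so the numbers of keratins past 1.5-fold are also given with a smooth trend on GC content and transcript length taken out. The same was done for some values of single keratins and of partner genes. Sums of keratins and the pseudogene rows are given without this removal. Among the duct markers other than keratins, CDH1 (E-cadherin) had 76, 39 and 5 counts and EPCAM had 26, 26 and 8, always in the order control, Rg3 and TAM. Of the 3 mesenchymal markers, the filament gene VIM had 55276, 39783 and 42048 counts, while CDH2 (626, 784 and 308) and ZEB1 (127, 225 and 38) had their highest counts in Rg3 and their lowest in TAM. All 5 acinar and all 4 endocrine markers were at 0. The fibroblast list summed to 1856, 1012 and 737 counts, nearly all from COL1A1 (1853, 1005 and 734). The leukocyte list summed to 615, 426 and 1101, nearly all from CD68 (615, 426 and 1100), with PTPRC at 0, 0 and 1. The endothelial list did not pass 1 count. Their part in the keratin results was not tested. In cultured cells as in tissue, fewer cells that express a keratin and less RNA per cell cannot be told apart.

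Few keratins carried the signal. Of the 55, 28 had 0 counts in every library, among them the basal pair KRT5 and KRT14. A further 16 reached 1 to 9 counts in their highest library, among them KRT32 (6, 4 and 7), KRT4 (6, 7 and 4), KRT17 (2, 5 and 3), KRT85 (2, 0 and 5) and KRT20 (1, 0 and 1). KRT75 and KRT83 reached 10 to 49 counts, and 9 members reached 50. The 7 genes grouped as simple epithelial (KRT7, KRT8, KRT18, KRT19, KRT20, KRT23 and KRT80) summed to 31096, 17344 and 30713 counts. The 21 stratified genes summed to 228, 307 and 268, the 17 hair genes to 254, 58 and 185, and the 9 inner root sheath genes to 6, 7 and 14. The group of 7 thus made up nearly all keratin counts in every library, with KRT80 alone at 11.5%, 9.81% and 8.38%.

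Levels between genes were compared as TMM-scaled RPKM, which divides by the length of the longest transcript. KRT18 stood at 468 in control, 246 in Rg3 and 633 in TAM. KRT8 stood at 466, 190 and 506. Both ranked near the top of the 30962 genes with a length in control, KRT18 at place 125 and KRT8 at place 126, and stood at places 247 and 316 in Rg3 and 126 and 167 in TAM. KRT80, a type II keratin of differentiating epithelia, followed at 81.3, 31.0 and 67.4. KRT19 stood at 41.7, 14.5 and 13.1, and KRT7 at 12.3, 3.68 and 19.8. The ductal partners KRT7 and KRT19 therefore changed places between control and TAM. KRT10 (7.59, 8.27 and 9.18) and KRT81 (7.45, 1.04 and 6.41) came next, then KRT86 (2.59, 0.439 and 1.81). KRT83, KRT15 and KRT75 stayed at or below 1.09. The order rests on transcript length, since with the median transcript length KRT8 (1454, 591 and 1577) stood above KRT18 (688, 362 and 931), and KRT15 moved to 3.00, 2.97 and 5.97.

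**Figure D2:**
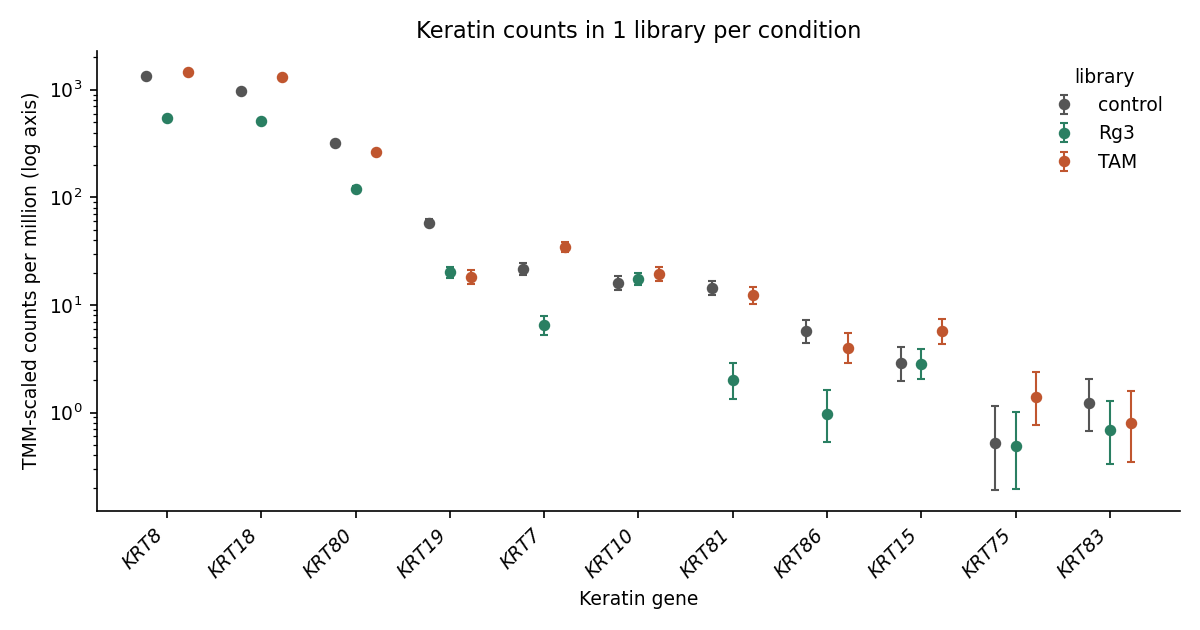
TMM-scaled CPM of each keratin with 10 or more counts in some library, on a log axis, with 1 point for each library (control, Rg3, TAM) and bars for exact 95% Poisson intervals, which cover counting error only. KRT8 and KRT18 lie above all others, and the Rg3 interval lies below the control interval for KRT7, KRT8, KRT18, KRT19, KRT80, KRT81 and KRT86.

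The well-counted keratins grouped as simple epithelial were lower in the Rg3 library. KRT8 (chr12:52897187-52949954) had 15329 counts in control and 7817 in Rg3, a log2 fold change of -1.30 (95% counting interval -1.34 to -1.26). Its partner KRT18 (chr12:52948871-52952901) had 11216 and 7406 counts, a log2 fold change of -0.93 (-0.97 to -0.88). KRT80 (chr12:52168996-52192000) had 3637 and 1738 counts, a log2 fold change of -1.39 (-1.48 to -1.31). Both members of the main pair were thus lower, KRT8 by 2.46-fold and KRT18 by 1.90-fold. KRT19 (chr17:41523617-41528308) had 665 and 290 counts, a log2 fold change of -1.52 (-1.73 to -1.32). KRT7 (chr12:52232520-52252186) had 248 and 93 counts, a log2 fold change of -1.74 (-2.10 to -1.39). The ductal keratins were lower by 2.88-fold and 3.34-fold.

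The hair keratins were further apart between these libraries. KRT81 had 165 counts in control and 29 in Rg3, a log2 fold change of -2.84 (-3.46 to -2.26). KRT86 had 66 and 14 counts, a log2 fold change of -2.56 (-3.51 to -1.72). Because part of their reads cannot be separated, these are better read as 1 result. Their sum was 231 and 43 counts, 6.74-fold lower in Rg3 (log2 -2.75, -3.26 to -2.28). KRT83, which neighbours them, had 14 and 10 counts, and its interval (log2 -0.81, -2.14 to 0.46) spanned no change. The stratified keratins did not follow. KRT10 (chr17:40818117-40822595) had 185 and 253 counts, a log2 fold change of 0.12 (-0.15 to 0.41). KRT15 (chr17:41513743-41522529), a keratin of basal cells, had 33 and 41 counts, a log2 fold change of -0.01 (-0.71 to 0.69).

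By a limit of 1.5-fold with at least 10 counts in either library, 8 of the 10 keratins compared were lower in Rg3 and 0 were higher. Among all 16487 genes compared, 19.5% were lower and 25.0% were higher. The keratins' median log2 fold change was -1.35, beside 0.04 over all genes. Leaving out members that share over 10% of their stretches kept 4 keratins, of which KRT19 and KRT80 were lower. With edgeR's exact test and an assumed coefficient of variation between cultures of 0.2, 4 of the 10 were called lower, beside 0.558% of all genes. They were KRT7, KRT19 and the sequence-sharing KRT81 and KRT86, while KRT8, KRT18 and KRT80 were not called. With 0.4 the count was 0, and only 1 of all 16487 genes was called.

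**Figure D3:**
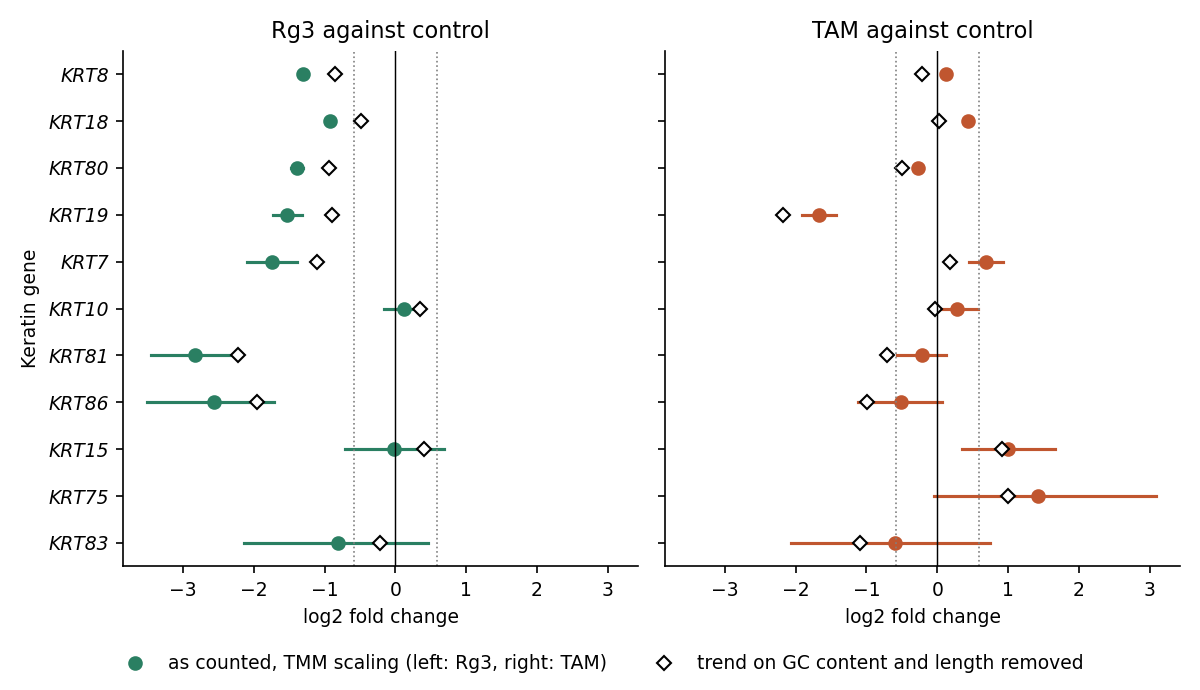
Log2 fold change (TMM) of each keratin for Rg3 against control and TAM against control, with 95% exact counting intervals as lines, open diamonds for the values after removal of the GC and length trend, and dotted lines at 1.5-fold and 0.67-fold. KRT75 was not compared in Rg3. Most filled Rg3 points lie left of the lower limit, from -0.81 for KRT83 to -2.84 for KRT81, while the filled TAM points lie on both sides of 0, from -1.67 for KRT19 to 1.43 for KRT75.

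Set against genes of like GC content, the Rg3 values were nearer to the rest but still low. The compared keratins had 52.0% to 62.9% GC. Among 888 genes with 56 to 58% GC, the median log2 fold change in Rg3 was -0.46 and the interquartile range was -0.73 to -0.23, below which lay KRT8 and KRT80. In bins of 2 percentage points of GC, 7 of the 10 keratins lay below the interquartile range of their bin, KRT10 and KRT83 lay within it, and KRT15 lay above it. With the trend removed, KRT8 stood at -0.86, KRT18 at -0.49, KRT80 at -0.94, KRT19 at -0.90, KRT7 at -1.11, KRT81 at -2.22 and KRT86 at -1.96 on the log2 scale. KRT18 was then no longer past 1.5-fold. The count became 6 of 10 lower and 0 higher, beside 10.3% lower and 8.59% higher over all genes with a GC value.

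**Figure D4:**
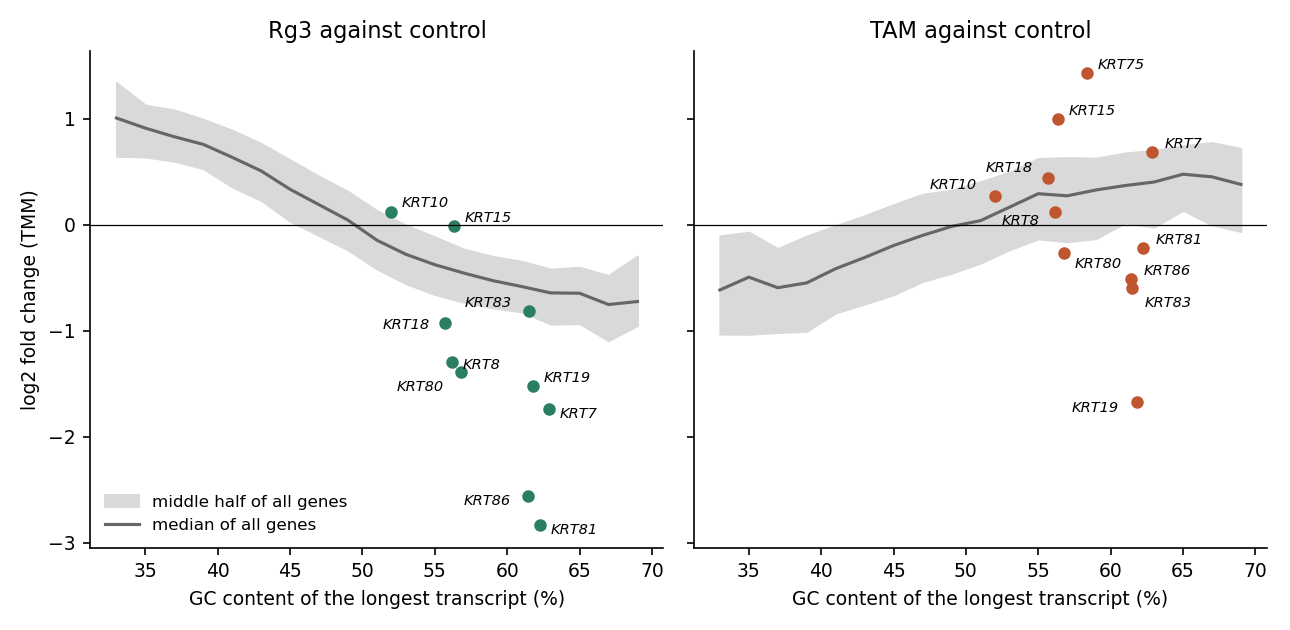
Log2 fold change (TMM) against GC content of the longest transcript in percent, for Rg3 and for TAM against control. The line is the median of all genes in bins of 2 percentage points and the band their interquartile range; 7 of 10 keratins lie below the band in Rg3 and 5 of 11 in TAM.

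In TAM the keratins went different ways. KRT8 had 14411 counts beside 15329 in control, a log2 fold change of 0.12 (0.08 to 0.15), and with library totals this became -0.09. KRT18 had 13162 beside 11216 counts, a log2 fold change of 0.44 (0.40 to 0.47). KRT80 had 2613 beside 3637 counts, a log2 fold change of -0.27 (-0.34 to -0.20). None of these passed 1.5-fold. KRT19 had 181 beside 665 counts, 3.18-fold lower (log2 -1.67, -1.92 to -1.43), whereas KRT7 had 345 beside 248, 1.60-fold higher (log2 0.68, 0.44 to 0.92). The ductal keratins KRT19 and KRT7 thus lay on opposite sides of the control in TAM, while both were lower in Rg3. With library totals KRT7 stood at 0.47 and with the trend removed at 0.18, neither past 1.5-fold.

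KRT15 had 57 counts in TAM beside 33 in control, 1.99-fold higher (log2 0.99, 0.35 to 1.66). KRT75 (chr12:52424070-52434525), a keratin of the hair follicle sheath, had 14 beside 6 counts, entered the comparison only through TAM, and its interval (log2 1.43, -0.04 to 3.10) spanned no change. KRT10 had 194 beside 185 counts, a log2 fold change of 0.27 (-0.02 to 0.57). The hair keratins were nearer to control than in Rg3. KRT81 had 123 counts (log2 -0.22, -0.57 to 0.13), KRT86 had 40 (log2 -0.52, -1.12 to 0.07) and their sum was 163 counts (log2 -0.30, -0.60 to -0.0013). KRT83 had 8 counts beside 14 in control and entered the comparison only through control. Its interval (log2 -0.60, -2.06 to 0.75) spanned no change.

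By the same limit, 3 of 11 keratins were higher in TAM (KRT7, KRT15 and KRT75) and 2 were lower (KRT19 and KRT83), beside 17.4% and 23.8% of all 16079 genes compared. The keratins' median was 0.12 and that of all genes -0.02. With the trend removed, 2 were higher (KRT15 and KRT75) and 4 were lower (KRT19, KRT81, KRT83 and KRT86), beside 13.0% and 16.0%. KRT19 was then at -2.18 on the log2 scale. The counts before removal of the trend stand near the background. Limited to counting intervals that leave out no change, they were 2 higher (KRT7 and KRT15) and 1 lower (KRT19), beside 14.4% and 19% of all genes.

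Set directly against Rg3, the TAM library had more reads of most keratins. The log2 difference was 1.42 (1.38 to 1.46) for KRT8, 1.36 (1.32 to 1.40) for KRT18 and 1.12 (1.03 to 1.21) for KRT80. It was 2.42 (2.09 to 2.77) for KRT7 and 2.46 for the sum of KRT81 and KRT86. KRT19 did not follow, with 290 counts in Rg3 and 181 in TAM and a log2 difference of -0.15 (-0.42 to 0.13). In all, 8 of 11 keratins were higher in TAM and 0 were lower, beside 30.0% and 35.4% of all 16493 genes compared. With the trend removed 5 were higher and KRT19 and KRT83 were lower, beside 19.1% and 19.2%. Doses differed between the agents (200 and 50 μM), so the values stand side by side and compare these libraries only.

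Summed over all keratins, counts were 31584, 17717 and 31180, or 0.279%, 0.138% and 0.275% of each library. The log2 fold change of the sum was -1.16 (-1.19 to -1.13) in Rg3 and 0.19 (0.17 to 0.21) in TAM, the last of which was -0.02 with library totals. Type I keratins summed to 12111, 8000 and 13610 counts, and type II to 19473, 9716 and 17570. The log2 fold change in Rg3 was -0.92 for type I and -1.33 for type II. Type I thus made up 38.3% (37.8 to 38.9) of typed counts in control, 45.2% (44.4 to 45.9) in Rg3 and 43.6% (43.1 to 44.2) in TAM (exact binomial intervals). Within the main pair, KRT18 held 42.3%, 48.7% and 47.7% of the counts of KRT8 and KRT18. Per length, the ratio of type I to type II was 0.907, 1.19 and 1.09, and with median transcript length 0.498, 0.642 and 0.570, so its order over the libraries held while its side of 1 did not.

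The split of reads between KRT81 and KRT86 was measured with wide intervals. KRT86 held 28.6% (22.8 to 34.9) of their joint counts in control, 32.6% (19.1 to 48.5) in Rg3 and 24.5% (18.1 to 31.9) in TAM, and these intervals overlap. The Rg3 share rests on 43 counts, and how shared reads were assigned is not known. The overlap therefore does not show that the split stayed the same. With KRT83 and KRT85 added, the 4 hair genes summed to 247, 53 and 176 counts, a log2 fold change of -2.55 in Rg3 and -0.28 in TAM.

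The pseudogenes of KRT8 and KRT18 carried counts of their own. The 48 KRT8 pseudogene rows, 43 of them with counts, summed to 3525, 2058 and 2596, and the 65 KRT18 pseudogene rows, 61 with counts, to 2202, 1221 and 2299. Of those compared in Rg3, 25 of 27 KRT8 pseudogenes and 30 of 30 KRT18 pseudogenes were lower, beside 19.5% of all genes, with medians of -1.43 and -1.29 on the log2 scale. Some of these rows reached the minimum of 10 counts only in control, such as KRT8P28 (16 and 0 counts in control and Rg3) and KRT18P49 (31 and 6). Rows of this kind could not come out higher. The KRT8 pseudogene that was higher, KRT8P22 (6 and 12), reached the minimum only in Rg3. In TAM, 12 of 26 KRT8 pseudogenes were lower and 1 was higher, and of 33 KRT18 pseudogenes 7 were higher and 3 lower, beside 23.8% lower and 17.4% higher over all genes. Here too some rows reached the minimum only in control, such as KRT8P14 (16 and 6 counts in control and TAM). Others reached it only in TAM, such as KRT18P2 (3 and 14). The pseudogene rows share sequence with their parent genes, so they are not separate evidence on them. Their values keep the trend on GC content. In Rg3 the median log2 fold change of all genes was -0.46 in the GC bin of KRT8 and -0.38 in that of KRT18. Summed with its pseudogenes, KRT8 had log2 fold changes of -1.26 in Rg3 and 0.06 in TAM, KRT18 -0.96 and 0.41, and KRT19 -1.54 and -1.65. With TMM scaling the 3 genes kept their direction under this sum, which their own counts largely fix. With library totals the log2 fold change of KRT8 summed with its pseudogenes was -0.15 in TAM.

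**Figure D5:**
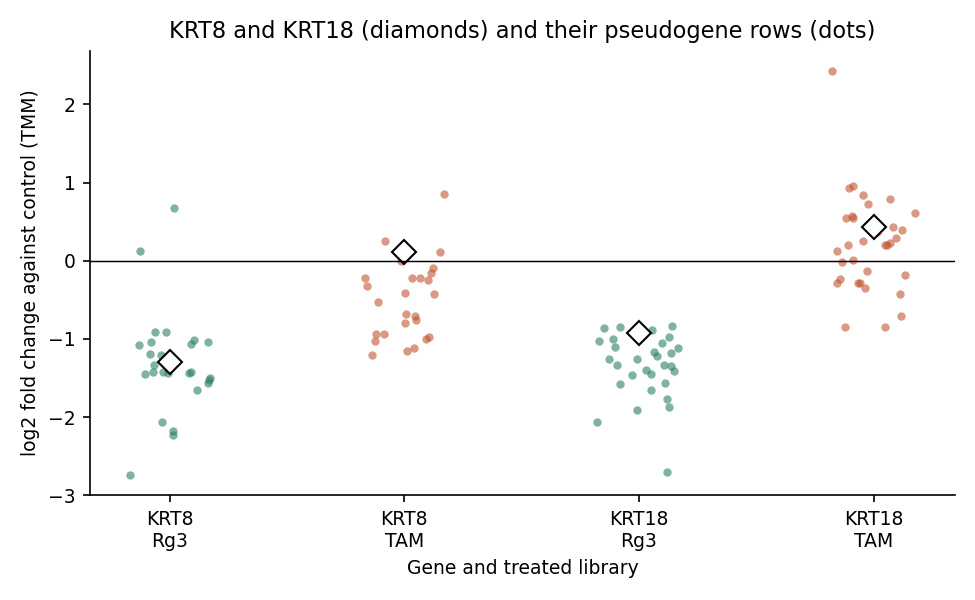
Log2 fold change (TMM) of each compared pseudogene of KRT8 and KRT18 in Rg3 and in TAM against control, with the parent gene as an open diamond and dots spread sideways only to keep them apart. In Rg3 nearly all pseudogenes lie below 0, with medians of -1.43 and -1.29, while in TAM they lie on both sides of 0.

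The genes that keratin filaments work with were read from a list of 62: desmosome and hemidesmosome genes, other intermediate filaments, keratin-binding proteins and epithelial transcription factors. In Rg3, 46 were compared, of which 16 were lower and 1 was higher, beside 19.5% and 25.0% of all genes. The higher gene was TGM1, a cross-linking enzyme, with 7, 16 and 6 counts and an interval that spanned no change. After removal of the trend 8 were lower and 1 higher, beside 10.3% and 8.59%, and 6 of the 16 were among the 8. Before removal, the median of the 46 compared genes was -0.26 on the log2 scale. The lower genes were 2 of 8 desmosome genes (JUP and PKP3), 4 of 9 hemidesmosome and plakin genes (CD151, EPPK1, EVPL and ITGB4), 5 of 8 other intermediate filament genes (DES, LMNA, LMNB2, NES and VIM), 1 of 11 keratin-binding genes (FAM83H) and 4 of 10 transcription factors (ELF3, GRHL3, TFAP2A and TFAP2C). Those 6 were PKP3, ITGB4, VIM, GRHL3, TFAP2A and TFAP2C, while after removal LMNA stood at -0.10, LMNB2 at -0.05, CD151 at -0.16 and JUP at -0.06. The desmosome genes PERP (-0.82) and DSC2 (-0.84) were lower only after removal. DES rested on 11 and 6 counts, with an interval that spanned no change. GRHL3, a transcription factor of epithelial barrier formation, had 159, 48 and 26 counts (log2 -2.05 in Rg3 and -2.41 in TAM). ITGB4, the hemidesmosome integrin, had 683, 269 and 508 counts (log2 -1.67 in Rg3). The anchorage genes were not lower throughout, since the integrin ITGA6 had 1597, 2957 and 898 counts (log2 0.56 in Rg3) and the plakin DST had 1339, 2423 and 359 (log2 0.53 in Rg3). Neither passed the limit in Rg3, and with the trend removed ITGA6 stood at 0.04 and DST at -0.14.

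In TAM, 47 partner genes were compared, of which 20 were lower and 5 higher, beside 23.8% and 17.4% of all genes, with a median of -0.32. After removal of the trend 13 were lower and 5 higher, beside 16.0% and 13.0%, and 13 of the 20 and 3 of the 5 were among them. DSP, the desmoplakin that ties keratin to desmosomes, had 762, 1044 and 134 counts (log2 -2.30 in TAM). The transcription factors JUN (824, 754 and 1620 counts, log2 1.18) and FOSL1 (1385, 1241 and 2088 counts, log2 0.80) were higher. With the trend removed JUN stood at 0.91 and FOSL1 at 0.31, the latter within the limit. Of 9 desmosome genes 4 were lower and 1 higher, and of 10 hemidesmosome and plakin genes 6 were lower and 1 higher. The shares over all genes were 23.8% and 17.4%. The higher genes were PKP1 (5, 2 and 12 counts) and COL17A1 (5, 2 and 15), both on few reads. With the trend removed 2 desmosome genes were lower and 1 higher, and 4 hemidesmosome and plakin genes were lower and 2 higher. TAM against Rg3, 15 of 47 partner genes were higher and 17 lower, beside 30.0% and 35.4% of all genes. On the log2 scale DSP stood at -2.43, DST at -2.22, JUN at 1.64 and ITGB4 at 1.45. With the trend removed these stood at -1.59, -0.58, 0.93 and 0.65. VIM had a log2 fold change of -0.80 in Rg3 and -0.19 in TAM, and the other mesenchymal markers, CDH2 and ZEB1, did not share this pattern.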

How the data were processed

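RNA of PANC-1 cells was sequenced on an Ion Proton. The authors checked reads with FAST-QC, aligned them with TopHat (build GRCh38 per the submitters' processing notes) and deposited raw counts per gene symbol. The counting tool, annotation and use of strand are not given in the sources used here. The members and gene lists were chosen with earlier results of these data known.

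TMM factors (1.02, 1.12 and 0.879) came from edgeR 4.0.16 (R 4.3.3). A gene was compared with at least 10 counts in either library and called past 1.5-fold or 0.67-fold. Counts under 3 were raised to 3, and no fold was taken where both were at or under 3. Intervals were 95% exact binomial. The trend on GC content and length (longest GENCODE 29 transcript) was a loess of span 0.3. Keratins with 50 or more counts were named, with KRT75 and KRT83, and of partner genes the 2 largest folds each way at 100 counts. Other partner genes past the limit in Rg3 were named after their values were seen. The result of 1 marker gene is not reported here. Steps were tested on simulated data. DESeq2 1.42.0 size factors were an alternative. The authors' limma criteria need replicates.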

Additional observations from a re-analysis of the deposited data

How the results depend on the processing

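With 1 library per condition, spread between cultures cannot be measured, and low members such as KRT75 and KRT83 rest on a few reads. No paired analysis was possible because the control, Rg3 and TAM groups hold 1 library each, and no replicate could be left out. Of the fold changes of single keratins, 31 kept their side of the limit under DESeq2 size factors and 1 did not, and 30 kept it under library totals, where 1 passed it and 1 fell back. With the trend removed 22 kept theirs, 6 fell back within the limit and 3 passed it, and KRT83 in TAM against Rg3 went from 0.21 to -0.88 on the log2 scale, past the limit with its sign turned.

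Of 8 keratins lower in Rg3, edgeR's exact test called 4 with an assumed variation of 0.2 and 0 with 0.4, and 2 of 4 were lower without members that share over 10% of their stretches. Of 3 higher in TAM, 1 passed 2-fold and 0 the exact test at 0.2 or 0.4. Of 2 lower in TAM, 1 was left under DESeq2 size factors, a minimum of 50 counts, a 2-fold limit, the counting interval, the exact test at 0.2 and without sharing members, 0 at 0.4, and there were 4 with the trend removed. Of 8 higher in TAM than in Rg3, 0 were called at 0.4, 5 with the trend removed and 3 of 5 without sharing members, and with the trend removed 2 were lower. Partner genes higher in Rg3 numbered 6 with library totals. With the trend removed 8 were lower in Rg3, 13 lower in TAM and 8 higher in TAM than in Rg3. With median transcript length the ratio of type I to type II was 0.498, 0.642 and 0.570. The cause of these moves was not tested beyond the construction of each alternative.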

Other observations

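A few keratin pseudogene rows, chosen after their values were seen, stood apart from the others. KRT8P12 had 54, 74 and 85 counts in control, Rg3 and TAM, a log2 fold change of 0.13 (-0.40 to 0.66) in Rg3 and 0.86 (0.35 to 1.38) in TAM, while KRT8P3, the KRT8 pseudogene with the most counts, had 1285, 774 and 954. KRT18P2 had 3, 3 and 14 counts, and KRT87P, a pseudogene of the hair keratin cluster, had 0, 0 and 6.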
